A study of Mus musculus with 6 samples.

Results

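The genes described here are 10 members of the FGF21 signaling axis, out of 22609 genes listed by symbol: the ligands Fgf21 and Fgf1, the receptors Fgfr1, Fgfr2, Fgfr3, Fgfr4 and Fgfrl1, the coreceptors Klb and Kl, and the adaptor Frs2. They were chosen by symbol because earlier results of the same contrast showed ligands higher and receptor-side genes lower, so their differences are described and not tested. RNA came from primary cultured iWAT adipocytes, that is, stromal vascular cells of inguinal white fat from male C57BL6 mice aged 3 weeks by the labels, grown and differentiated in culture. There were 3 control samples, which the labels call control vector, and 3 samples overexpressing miR182. The labels name electroporation as the delivery method, whereas the methods of the study name a miR-182-5p mimic, a lipid reagent and mice of another age. No source used here says whether the samples of a group came from separate mice or cultures, so any p-value measures the spread between these samples, which may be technical.

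FGF21 is a hormone of the endocrine FGF branch. It binds heparan sulfate weakly and needs the single-pass protein β-klotho (Klb) to signal through FGF receptors, mainly FGFR1 in adipocytes. FGF1 is a paracrine ligand that binds all FGF receptors without β-klotho. Inside the cell, activated receptors phosphorylate the docking protein FRS2, which recruits GRB2, SOS and SHP2 and starts the RAS-ERK cascade, with Sprouty, SPRED and dual-specificity phosphatases as feedback inhibitors.

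The miRNA overexpressed in the second group has the mature sequence below in RefSeq (GRCm38.p6, chr6:30165962-30165986, minus strand), with bases 2 to 8, the seed, in capitals. The sequence that the study's methods give for the mature miRNA assayed by PCR has the seed of the miR-30 family in place of this one, so both seeds were looked up. One family member is shown for comparison.
miR-182-5p: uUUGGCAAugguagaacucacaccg
miR-30c-5p: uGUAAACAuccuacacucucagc

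The longest annotated 3′-UTR of Frs2, of 4502 bases (GENCODE M21, GRCm38), held 4 copies of TTGCCAA, the 7-base complement of the miR-182-5p seed. Of these, 3 were followed by A and so matched 8 bases. The 4 stretches are shown because no other member had more than 1 match. They lie on the minus strand at chr10:117071236-117071264, chr10:117070800-117070828, chr10:117070302-117070330 and chr10:117069460-117069488, in the order printed, with the match in capitals.
Frs2 match 1: cttaggaaactTTGCCAAgcagtctctgt
Frs2 match 2: ttccttaatgtTTGCCAAattagaatcaa
Frs2 match 3: tgggactaccaTTGCCAAattgtatatga
Frs2 match 4: cttctcccttaTTGCCAAaagtagatcgc

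Among the 12529 tested genes with an annotated 3′-UTR, 12.51% held at least 1 such 7-base match and 5.24% the 8-base match. Only 5 of them, Frs2 included, held 4 or more matches, and Frs2 was the only one with 3 of the 8-base kind. A 3′-UTR at least as long as that of Frs2 was annotated for 5.88% of these genes. The other 4 genes with as many matches were D10Wsu102e, D1Ertd622e, Dcun1d3 and Gabrb1, with 3′-UTRs of 4777 to 122583 bases, which are named after their values were seen. Their log2 fold changes between groups were 0.05, 0.05, -0.24 and 0.90, of which only that of Dcun1d3 had an adjusted p under 0.05 (0.00131, edgeR). Of the remaining members, only Fgf1 held a miR-182-5p match, of 7 bases. Klb, with a 3′-UTR of 310 bases, and Fgf21, with 134 bases, held none for either seed.

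The miR-30 match TGTTTAC occurred in 1 member, Fgfr3, on the plus strand at chr5:33735585-33735613, against 16.42% of the same genes.
Fgfr3 miR-30 match: gccccaggcaaTGTTTACgcggaccctag
A match is a description of the letters and not a shown binding site.

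**Figure D1:**
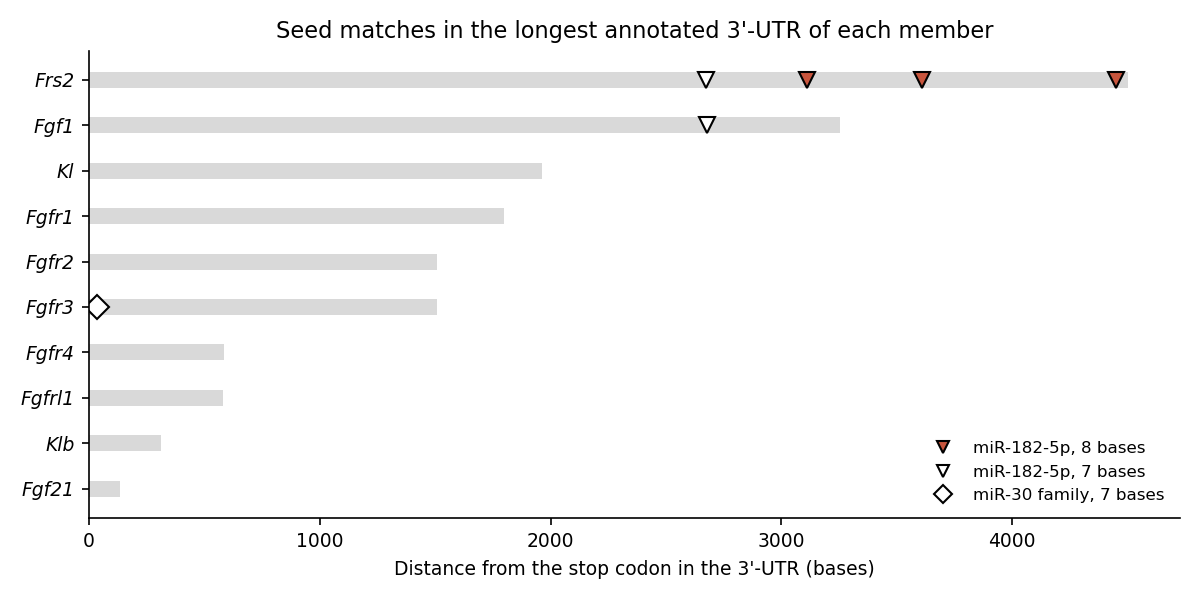
Each gray bar is the longest annotated 3′-UTR of a member, drawn to scale in bases from the stop codon, with triangles at miR-182-5p matches (filled for 8 bases, open for 7) and a diamond at the miR-30 family match. Frs2 carries 4 triangles, 3 of them filled, and Fgf1 carries 1.

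Between 25869810 and 28796712 reads per sample were counted on genes. Values are reported as CPM, reads per 1000000 reads of a library whose size was scaled by TMM, with log2 fold changes of miR-182 over control and their SE from edgeR. Replicate 1 of the miR-182 group stood farther from replicates 2 and 3 of its group (chi-square per degree of freedom 4.82 and 6.90) than those were from each other (2.08). Adipocyte markers were abundant in all 6 samples, among them adiponectin (Adipoq, 928 CPM in control and 675 CPM with miR-182), and globin genes were listed at 0. Of the 10 members, 8 had enough reads to be tested. Klotho (Kl), the coreceptor of FGF23, had 0 reads in every sample. That allows up to 0.104 to 0.116 CPM before TMM scaling (3 reads, counting error only). Fgfr4, a receptor of hepatic FGF15 signaling, had 0 reads in each control and 1 read in each miR-182 sample, under that limit, and no fold is given.

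The members moved in both directions. Of the 8 tested, 2 were higher and 3 lower at a fold of at least 1.5 with an adjusted p under 0.05, a pair of cutoffs that 7.45% of all 13117 genes tested passed (1.97% higher, 5.48% lower). By the adjusted p alone, 3 were higher and 4 lower, against 46.7% of all genes (23.2% higher, 23.5% lower). In all 8 the values of the groups did not overlap, which held for 54.8% of all genes. Because the members were chosen from this contrast, nothing is read from these shares. RNA of whole cultures cannot tell fewer cells of a type from less RNA per cell.

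**Figure D2:**
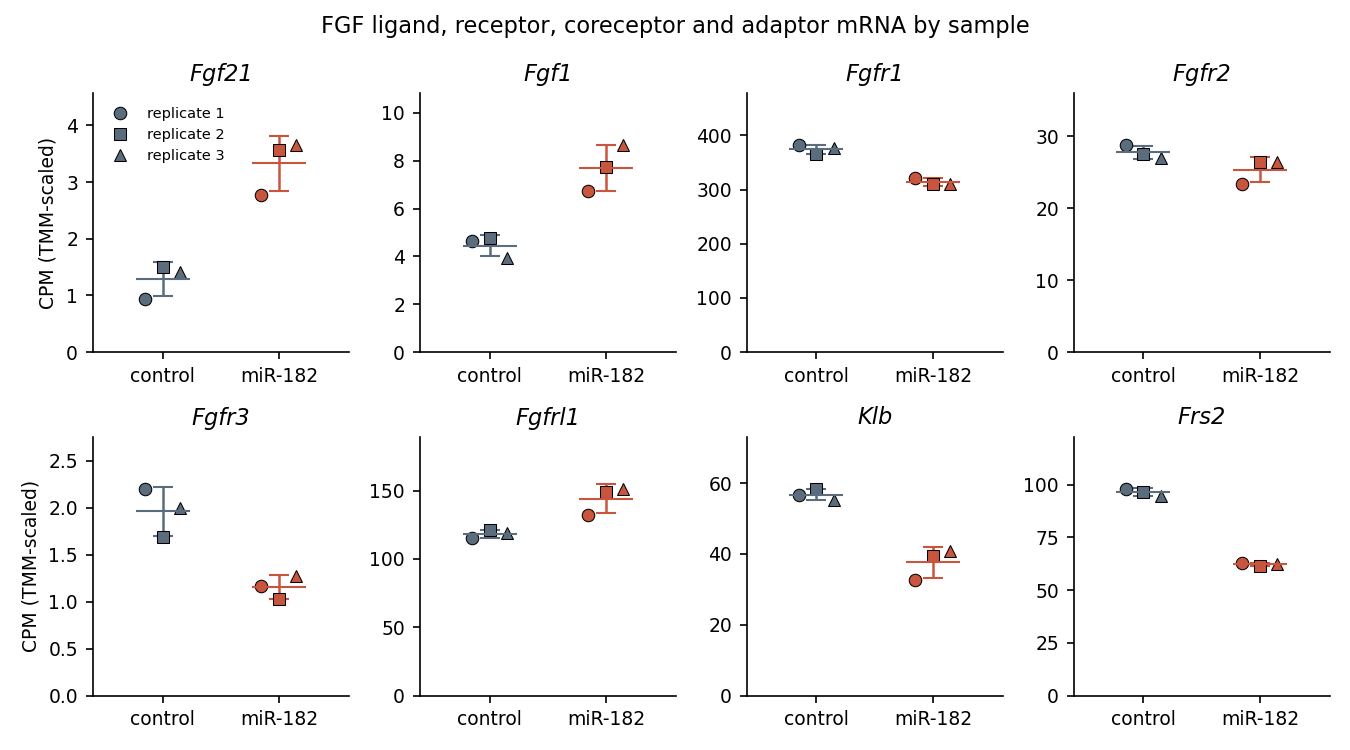
CPM (linear axes from 0) of the 8 tested members, with a point for each sample (circle, square and triangle for replicates 1, 2 and 3) and a bar with error bars for the mean ± SD of 3 samples. The groups do not overlap in any panel; Fgf21, Fgf1 and Fgfrl1 are higher with miR-182 and the other 5 lower.

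Both ligands were higher with miR-182. Fgf21 (chr7:45613886-45615490, GRCm38, minus strand) stood at 0.943, 1.49 and 1.42 CPM in control replicates 1 to 3 and at 2.77, 3.57 and 3.65 CPM in the miR-182 samples. The lowest miR-182 value was well above the highest control value, although these levels rest on only 24 to 103 reads. The log2 fold change was 1.37 (SE 0.19), a 2.58-fold difference. Fgf1, whose gene lies on chromosome 18, stood at 4.64, 4.75 and 3.95 CPM in control and 6.71, 7.74 and 8.64 CPM with miR-182. Again the groups were apart, with replicate 1 the lowest miR-182 sample for both ligands. The log2 fold change of Fgf1 was 0.79 (SE 0.12). In reads, Fgf21 came to 29.2 ± 8.02 per 100 Fgf1 reads in control and 43.2 ± 2.53 with miR-182 (SD, n = 3 each). Fgf21 reads thus rose relative to Fgf1 reads, although the lowest control value, 20.3 in replicate 1, rests on 24 Fgf21 reads.

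The receptors with a kinase domain were lower or little changed. Fgfr1 (chr8:25513654-25575718, plus strand), the main partner of β-klotho in fat, stood at 382, 366 and 376 CPM in control and 322, 310 and 310 CPM with miR-182. The groups did not overlap, with SDs of 8.18 and 7.11 CPM, and the decrease was 16.3%, with a log2 fold change of -0.26 (SE 0.029). Fgfr2 stood at 28.8, 27.6 and 27.0 CPM in control and 23.3, 26.4 and 26.4 CPM with miR-182. Its groups did not overlap but were less than 1 CPM apart, and the log2 fold change of -0.13 (SE 0.06) did not pass the adjusted p. Replicate 1 alone accounted for the low end of the miR-182 values.

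Fgfr3 (chr5:33721674-33737068, plus strand) had few reads, 56, 44 and 52 in control and 34, 27 and 36 with miR-182. In CPM these were 2.20, 1.68 and 1.99 against 1.16, 1.02 and 1.28. Every miR-182 sample was below every control sample, with a log2 fold change of -0.76 (SE 0.19). Of its annotated exon bases, 998 are shared with the antisense gene G630022F23Rik. The libraries keep the strand, but whether counting used it is not given in the sources used here, so reads of these genes may not be told apart. Fgfr2 shares 314 exon bases with Ctbp2 on the same strand and Fgfr1 shares 164 with the antisense gene Gm16159, smaller parts of their exons.

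Fgfrl1 (chr5:108692382-108706924, plus strand) encodes an FGF-binding receptor that lacks the tyrosine kinase domain. It moved opposite to the kinase receptors, from 116, 121 and 119 CPM in control to 132, 149 and 151 CPM with miR-182. No values overlapped, and replicate 1 was again the miR-182 sample nearest to control. The log2 fold change was 0.28 (SE 0.045). Against Fgfr1 in the same sample, Fgfrl1 came to 30.3, 33.2 and 31.5 reads per 100 Fgfr1 reads in control and to 41.0, 48.1 and 48.8 with miR-182, 1.45 times as many.

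The coreceptor gene Klb (chr5:65348314-65384007, plus strand) stood at 56.6, 58.4 and 55.2 CPM in control and at 32.6, 39.4 and 40.8 CPM with miR-182. The control samples lay within about 3 CPM of each other, and the miR-182 samples were all lower, replicate 1 the most. The log2 fold change was -0.59 (SE 0.066), a 33.8% decrease. That is a 1.51-fold difference, just past the fold cutoff. Without miR-182 replicate 1 the log2 fold change was -0.50 and without control replicate 2 it was -0.57, both short of that cutoff.

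The adaptor gene Frs2 (chr10:117069427-117148534, minus strand) had the smallest SE of those past both cutoffs. It stood at 98.1, 96.7 and 94.6 CPM in control and 62.7, 61.6 and 62.4 CPM with miR-182. Values within a group differed by at most a few CPM, replicate 1 did not stand out, and the groups were far apart. The log2 fold change was -0.63 (SE 0.033), a 35.5% decrease. Relative to its receptor, Frs2 came to 25.7, 26.4 and 25.1 reads per 100 Fgfr1 reads in control and to 19.5, 19.9 and 20.1 with miR-182.

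**Figure D3:**
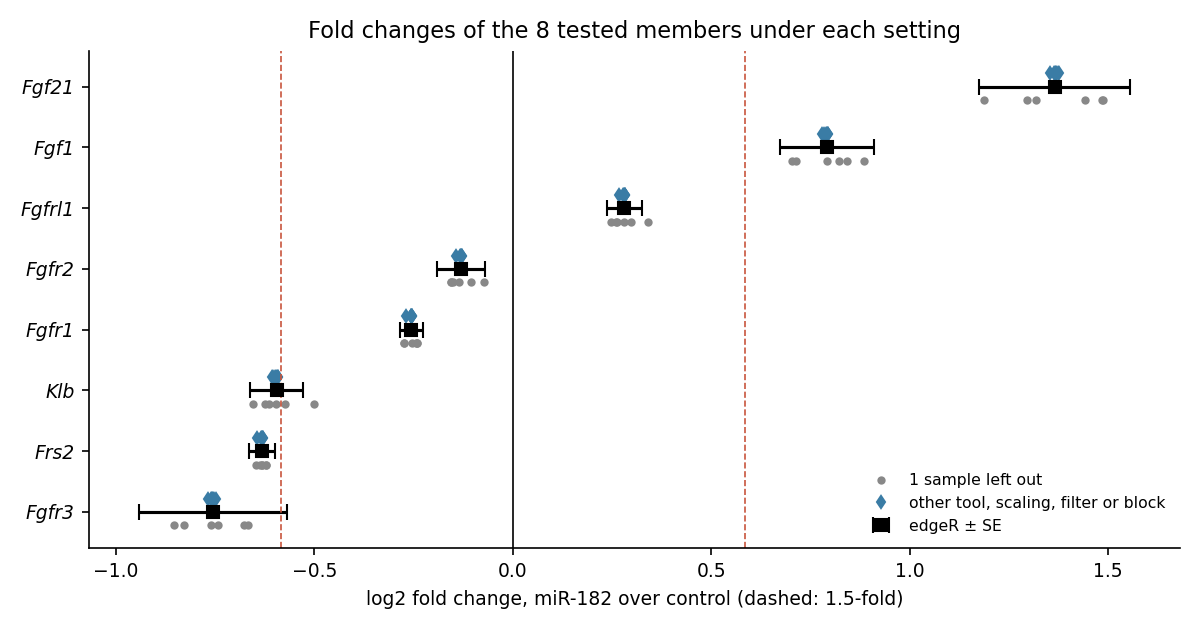
Log2 fold changes (horizontal axis) of the 8 tested members, with black squares and bars for edgeR ± SE, blue diamonds for other tools, scalings, filters and the replicate block, and gray circles for fits with 1 sample left out. Every point keeps the sign of its square, and only Klb has points on both sides of the 1.5-fold line (dashed).

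Setting ligand beside coreceptor within each sample removes the library scaling. Fgf21 came to 1.67, 2.56 and 2.57 reads per 100 Klb reads in control and to 8.50, 9.06 and 8.95 with miR-182. The ratio was 3.90 times as high with miR-182. Its lack of overlap follows from the opposite moves of Fgf21 and Klb, for which the members were chosen. Fgf1 rose against Klb in the same way, from 7.82 ± 0.584 to 20.5 ± 0.777 reads per 100 Klb reads (SD, n = 3 each). Klb also lost against Fgfr1, with 15.2 ± 0.713 reads per 100 Fgfr1 reads in control and 12.0 ± 1.63 with miR-182.

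Adipocyte marker genes were lower in the same samples. Of the 12 listed, 9 fell and 1, leptin (Lep), rose by adjusted p in edgeR, against 23.5% and 23.2% of all genes. The summed level of the 12 ranged from 14016 to 14814 CPM in control and from 9605 to 10854 CPM with miR-182. Replicate 1 of the miR-182 group, the lowest for Klb, was also the lowest in this sum. Per 100000 reads of the 12 markers, Klb came to 399, 394 and 394 reads in control and to 340, 384 and 376 with miR-182, 7.41% lower and still without overlap. On that scale Frs2 came to 673 ± 19.5 and 609 ± 39.6 reads, Fgfr1 to 2616 ± 127 and 3075 ± 254, and Fgfrl1 to 827 ± 16.7 and 1407 ± 40.2 (control and miR-182, SD, n = 3 each). Fgfr1, lower in CPM, was higher relative to this sum, of which Lpl and Fabp4 made up 63.6% to 67.7%. With the other 10 markers, a choice made after seeing the data, Klb was 13.9% lower and Fgfr1 1.09 times as high, both without overlap. The marker Plin1, a lipid droplet coat gene, stood at 663 and 636 CPM (log2 fold change -0.058, adjusted p = 0.316) and so differed less than Fgfr1 did. Fgf21 rose from 8.95 ± 1.99 to 32.4 ± 3.12 reads per 100000 marker reads. The part of the lower adipocyte marker level in the change of Klb was not tested.

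**Figure D4:**
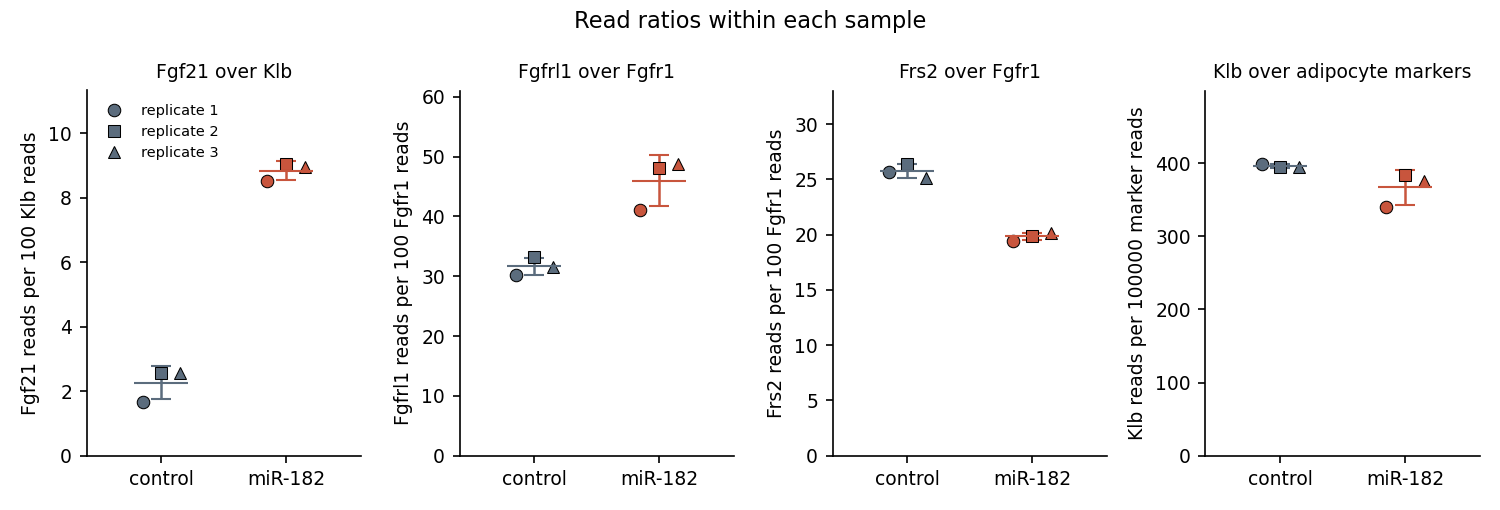
Read ratios within each sample (linear axes from 0; points are the 3 replicates, bars the mean ± SD): Fgf21 per 100 Klb reads, Fgfrl1 and Frs2 per 100 Fgfr1 reads, and Klb per 100000 reads of 12 adipocyte markers. The first ratio separates the groups widely (2.26 against 8.83 on average) and the last narrowly (396 against 367).

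Markers of other cells differed between groups too. Of 10 tested progenitor and fibroblast markers, 6 fell and 1, Thy1 (log2 fold change 0.19), rose by adjusted p, against 23.5% and 23.2% of all genes. Pdgfra fell from 450 to 248 CPM (log2 fold change -0.86) and Dlk1 by 0.40, whereas Pdgfrb stood at 705 and 733 CPM (0.056, adjusted p = 0.117). The list median was -0.38. The summed level ranged from 21382 to 22530 CPM in control and 20465 to 21324 CPM with miR-182. Most of that sum was Col1a1, named outside the rule, at 19248 and 18643 CPM (-0.046, adjusted p = 0.378, edgeR). The 10 macrophage markers summed to only 15.01 to 16.05 CPM in control and 12.8 to 16.3 CPM with miR-182, and the 7 endothelial markers to 8.93 to 10.03 and 5.47 to 6.45 CPM. Of the latter, Tek carried the difference (6.05 to 2.43 CPM), and the other 6 summed to 3.22 to 3.33 CPM in control and 3.11 to 4.22 CPM with miR-182. Smooth muscle markers summed to 3454 to 3626 and 4130 to 4496 CPM, with Acta2 higher by 0.29. By adjusted p 3 of 5 rose, against 23.2% of all genes. Skeletal muscle markers summed to 18.8 to 19.2 and 29.01 to 33.2 CPM, almost all of it Acta1 (18.5 to 30.5 CPM, 0.73), with Myod1 and Ckm at 0 reads. The 5 erythroid markers summed to under 1 CPM, as did the 4 hepatocyte markers, a tissue that also makes FGF21. Of 7 thermogenic markers, 5 were tested and 2 fell by adjusted p, against 23.5% of all genes. Ucp1 and Dio2 had too few reads to be tested. The part of these cells in the members' differences was not tested.

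Levels of different genes were compared as CPM per kilobase of annotated exon. In control the order was Fgfrl1 (42.6), Fgfr1 (37.9), Klb (12.5), Frs2 (11.02), Fgfr2 (2.69), Fgf21 (1.35), Fgf1 (0.813) and Fgfr3 (0.274), and no neighbours overlapped in their sample ranges. With miR-182 Fgf21 (3.50) passed Fgfr2 (2.46) on this length, and the order was otherwise unchanged. The place of Fgfrl1 depends on the length used: with the longest transcript in place of all exons, Fgfr1 stood above it in control (74.3 against 50.9), and these 2 overlapped with miR-182 (62.2 and 61.9). On that length Fgf21 (3.50) stayed below Fgfr2 (5.89) with miR-182, without overlap, so their order there also depends on the length. Fgf21 and Fgf1 overlapped in control with the longest transcript, as did Klb and Frs2 with miR-182. Among the 4 kinase receptors, Fgfr1 made up 92.8% ± 0.18 of the level per exon length in control and 92.4% ± 0.615 with miR-182 (SD, n = 3 each), which overlapped. Transcripts of the kinase receptors were thus almost entirely Fgfr1 in both groups.

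Of 20 other FGF ligand genes, 8 were tested and none passed the adjusted p in edgeR, which 46.7% of all genes did. The most abundant were the mesenchymal ligands Fgf7 (95.1 and 99.1 CPM in control and miR-182, log2 fold change 0.06, SE 0.04) and Fgf10 (76.4 and 78.1 CPM, 0.03, SE 0.033), which signal mainly through the epithelial form of FGFR2 and are named here outside the rule. At an unadjusted p under 0.05 the count was also 0, and by adjusted p it was 0 with DESeq2 and limma-voom too. The endocrine relative Fgf15 had 0 reads in every sample.

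Receptor-proximal signaling genes moved in both directions. Of 12 tested, 6 rose and 2 fell by adjusted p, where 23.2% of all genes rose and 23.5% fell, with a median log2 fold change of 0.19 against -0.0043 for all genes. The adaptor genes that couple receptors to RAS split: Shc1 fell from 152 to 86.4 CPM (-0.81, SE 0.033, adjusted p = 1.59e-10) and Grb2 from 56.1 to 42.8 CPM (-0.39, SE 0.041), while the RAS exchange factor Sos2 rose from 23.2 to 39.0 CPM (0.75, SE 0.051, adjusted p = 3.76e-08). Crk (0.37), another adaptor, and Ptpn11 (0.23), which encodes SHP2, also rose. With Frs2, 3 docking or adaptor genes upstream of SOS were lower. Others of the list, named outside the rule, were not: Frs3 (0.20) and Gab1 (-0.12) did not pass the adjusted p, and Crkl (0.18) rose.

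In the RAS-ERK and PI3K cascade, 6 of 18 genes rose and 4 fell, none by 1.5-fold, and those past the adjusted p in either direction (10 of 18) were near the 46.7% of all genes. Nras (0.50), the kinase gene Map2k1, which encodes MEK1 (0.42), and Rps6ka3, which encodes the ERK target kinase RSK2 (0.20), rose most. Among those that fell were Pik3r1 (-0.17), a regulatory subunit of PI3K, and Mapk3 (-0.13), the gene of ERK1. The list median was 0.04.

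Of 12 feedback inhibitors, 11 were tested, 4 rose and 2 fell, 6 in all against 46.7% of all genes. The Sprouty gene Spry1 rose from 63.5 to 94.5 CPM (0.57, SE 0.035), short of 1.5-fold, followed by Spred3 (0.45) and Dusp6 (0.26), the ERK phosphatase. Rasa1, the RAS GTPase-activating protein, fell from 62.2 to 43.1 CPM (-0.53) and Dusp4, a nuclear ERK phosphatase, by 0.46.

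Of 12 transcripts that respond to ERK, 8 rose and none fell by adjusted p, against 23.2% of all genes rising, with a list median of 0.20. Fosl1 rose from 3.43 to 5.56 CPM (0.70, SE 0.13, adjusted p = 0.000617) and Ier3 from 37.5 to 57.6 CPM (0.62, SE 0.05, adjusted p = 2.07e-07). Fos, which follows many stimuli, rose from 16.9 to 22.6 CPM (0.42). The 4 that did not pass, named here outside the rule, were Etv1 (0.0075), Etv4 (-0.027), Etv5 (0.055) and Phlda1 (0.18). The stimulus behind the rises was not tested.

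Heparan sulfate proteoglycans and their enzymes shape paracrine FGF binding. Of 23 tested, 9 rose and 7 fell, against 23.2% and 23.5% of all genes. The 6-O-sulfotransferase genes Hs6st1 (62.8 to 98.2 CPM, 0.65, SE 0.034, adjusted p = 2.85e-09) and Hs6st2 (0.37) rose, as did syndecan-4, Sdc4 (0.37). Syndecan-1, Sdc1 (-0.54), the chain polymerase gene Ext2 (-0.52) and glypican-3, Gpc3 (-0.49) fell. The list median was 0.04.

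**Figure D5:**
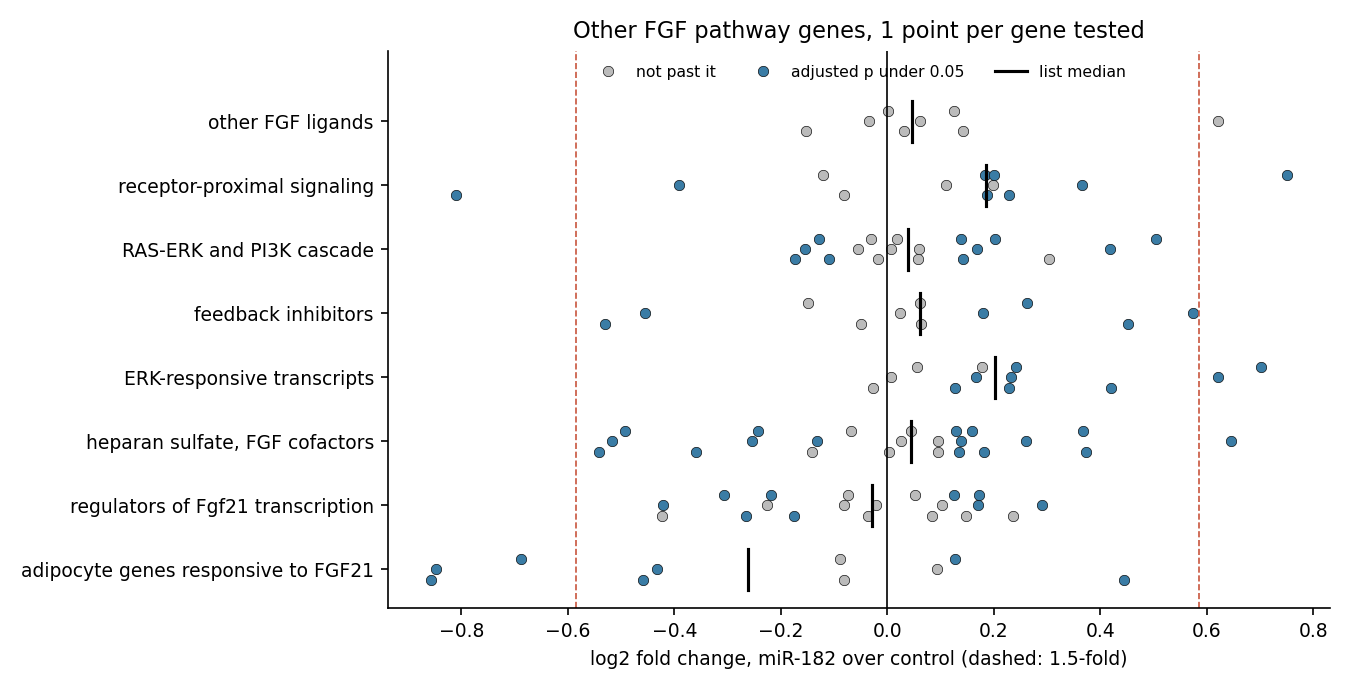
Log2 fold change of each tested gene (points, blue where the adjusted p is under 0.05) in 8 lists of FGF pathway genes, with a black bar at the list median and dashed lines at 1.5-fold. The ERK-responsive list has 8 blue points, all to the right of 0, and the list of other FGF ligands has none.

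Of 20 known regulators of Fgf21 transcription, 4 rose and 5 fell, none by 1.5-fold, with a list median of -0.03. These 9 are near the 46.7% of all genes past the adjusted p. The endoplasmic reticulum stress sensor genes Ern1 (0.29) and Eif2ak3 (0.17) and the corepressor gene Ncor1 (0.17) rose, Eif2ak3 losing its adjusted p in 3 of the 6 fits with 1 sample left out (log2 fold changes 0.14 to 0.15). The REV-ERB gene Nr1d2 (44.1 to 33.0 CPM, -0.42, SE 0.059), the adipogenic receptor gene Pparg (-0.31) and Xbp1 (-0.27) fell. Outside the rule for names, Nr1d1, the REV-ERB gene the study examined, fell from 28.7 to 24.6 CPM (-0.22, SE 0.051, adjusted p = 0.00299), and Atf4, which activates Fgf21 under stress, rose from 346 to 377 CPM (0.12, SE 0.033, adjusted p = 0.00618).

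The Fgf21 promoter in RefSeq (GRCm38.p6; 250 bases before to 50 after the start site) carries letters that ATF4 and E-box factors are known to read. Both are shown with the motif in capitals, at chr7:45615612-45615640 and chr7:45615525-45615550, written 5′ to 3′ along the gene on the minus strand.
Fgf21 ATF4 element, in reverse: agacccccccATTGCATCAtccgtccagg
Fgf21 E-box: gtggggagggCACGTGggcgggcctg
The element TGATGNAAT, searched on both strands, occurred in 0.96% of 32851 promoters of this length and, of 9 promoters of 8 members, only in that of Fgf21. The E-box CACGTG occurred in 7.15% of all and in those of Fgf21, Fgfrl1 and Fgfr2. The half-site AGGTCA and the ROR element core TAGGTCA, which contains it, occurred in none of the 9 member promoters and in 16.26% and 2.61% of all. TGACGT, the core of the cAMP element, was likewise in none (7.51% of all), nor was its full form TGACGTCA (1.79%). No binding was measured here.

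Of 12 adipocyte genes that respond to FGF21 or, in the case of Fap, act on it, 10 were tested, 2 rose and 5 fell, against 23.2% and 23.5% of all genes, with a list median of -0.26. Without Fap, a choice made after seeing the data, 2 of 9 rose and 4 fell, with a median of -0.09. The glucose transporter gene Slc2a1 (117 to 159 CPM, 0.44, SE 0.041) and Egr1 (0.13) rose, Egr1 losing its adjusted p in 2 of the 6 fits with 1 sample left out (0.0929 and 0.103). Fap, the protease that cleaves human FGF21 (7.88 to 4.33 CPM, -0.86, SE 0.11, adjusted p = 3e-05), the chemokine gene Ccl11 (-0.85, adjusted p = 0.000141) and the lipase gene Pnpla2 (885 to 549 CPM, -0.69, adjusted p = 1.71e-09) fell past both cutoffs. Adipoq, a hormone induced by FGF21, fell from 928 to 675 CPM (-0.46). Adipoq and Pnpla2 are also among the 12 adipocyte markers, and the part of the lower marker level in this list was not tested.

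The genes whose profile over the 6 samples was nearest to that of Fgf21 (root mean square difference of centred log2 CPM) were Ppp1r3a, a glycogen-targeting subunit (0.149), the tight junction gene Cldn15 (0.21) and Megf10 (0.231). Ppp1r3a was below 1 CPM in every sample. Those nearest to Klb were Dgat2, the last enzyme of triglyceride synthesis (0.0217), Smoc1 (0.0335) and Olfm2 (0.0395). Dgat2 stood at 249, 263 and 247 CPM in control and at 146, 170 and 182 CPM with miR-182, the same order of the samples as for Klb.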

How the data were processed

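Raw read counts per gene symbol, as deposited by the authors (1 list per sample, no normalization), were read for 6 samples. The submitters' notes name bcl2fastq, TopHat2, HTSeq and the mm9 build. Versions and the strand setting are not given in the sources used here. The 5 HTSeq tally lines were left out. Libraries held 25869810 to 28796712 reads on genes. Counts were fitted in R 4.3.3 with edgeR 4.0.16 (TMM, default filter with a minimum count of 10, quasi-likelihood test, two-sided, no block) over 13117 genes, with Benjamini-Hochberg adjustment and the study's cutoffs (1.5-fold, adjusted p 0.05). SE is the log2 fold change divided by the root of F. An exact permutation test of 3 against 3 cannot go below p = 0.1, so none was run. Limits for a count of 0 use 3 reads and library sizes without TMM scaling. These limits cover counting error only, since reads carry no molecular identifiers.

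GENCODE M21 (GRCm38) held 22236 of the 22609 symbols, 1952 of them under a newer name. Deposited counts carry no coordinates. Positions and lengths are GRCm38, not the build of the alignment. miRNA and promoter sequences are from RefSeq (GRCm38.p6). Promoters were found for 8 members.

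The members, gene lists and alternatives were chosen with earlier results of these data known. Named genes are the members, in each list those past both cutoffs plus up to 3 higher and 3 lower by adjusted p, the first 3 markers of a list where quoted, and the 3 nearest profiles to Fgf21 and Klb. A gene that this rule names is not reported here. On simulated counts with 197 of 13030 genes changed, edgeR recovered 181 with 5 false calls. The changed genes had a median estimated log2 fold change of 0.996 in size, so recovery of changes near the fold cutoff was not examined. Alternatives were DESeq2 1.42.0, limma-voom (limma 3.58.1), 2 other scalings in edgeR (DESeq2 size factors, upper-quartile factors), leaving the filter out or asking for 10 counts in each sample, a replicate block, leaving out each sample, the longest transcript and 8-base matches. Added after seeing the data were the adipocyte markers without Lpl and Fabp4 and the FGF21-responsive list without Fap.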

Additional observations from a re-analysis of the deposited data

How the results depend on the processing

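All 8 tested members kept their direction under the 13 other settings. With 1 sample left out, 4 to 5 members passed both cutoffs, Klb being the one lost (log2 fold change -0.57 without control replicate 2 and -0.50 without miR-182 replicate 1, both short of the fold cutoff), and 7 passed the adjusted p in every fit. Fgf21 ranged from 1.19 to 1.49, Fgf1 from 0.70 to 0.89, Fgfr3 from -0.85 to -0.67 and Frs2 from -0.65 to -0.62. With upper-quartile factors 4 receptor-proximal genes fell in place of 2. Of the adipocyte genes responsive to FGF21, 1 to 2 rose with 1 sample left out. With the longest transcript 0 members stood above Fgfr1 in control in place of 1, and Fgf21 stood below Fgfr2 with miR-182 in place of above it. With 8-base matches 1 member in place of 2 held a miR-182-5p match and 0 in place of 1 a miR-30 match. Without Lpl and Fabp4 among the adipocyte markers, the ratio of miR-182 to control per marker read went from 0.926 to 0.861 for Klb, 0.905 to 0.843 for Frs2, 1.70 to 1.58 for Fgfrl1 and 2.42 to 2.25 for Fgf1, and kept its direction for Fgfr1 and Fgf21 too. Causes of these shifts were not tested, apart from the longer match being stricter.

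Same-numbered samples did not deviate together (correlations -0.18 to -0.042, mean -0.099, against 0.049 for other pairs). Values were centred within each group of 3, which ties these correlations to each other. They therefore cannot decide whether the numbers pair the samples. With the replicate block Fgf21 was at 1.38, Klb at -0.60 and Frs2 at -0.63, and 5 members passed both cutoffs. Cbl, Ksr1, Egr1, Eif2ak3 and Mlxipl lost their adjusted p in 2 to 3 fits with 1 sample left out. Fgf21 and Fgfr3, with 24 to 103 and 27 to 56 reads, have the largest SE (0.19) at this depth.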

Other observations

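Seed matches were also counted in the FGF pathway genes of the 8 lists, as values with no test. Of the 25 genes that fell by adjusted p and had an annotated 3′-UTR, 4 held a 7-base miR-182-5p match. Of the 38 that rose, 6 held one, and of the 49 that did neither, 5. The shares were 16%, 15.8% and 10.2%, beside 12.51% of all tested genes. The median 3′-UTR lengths were 1022, 2132 and 1625 bases in the same order. Rasa1, the RAS GTPase-activating protein, held 2 matches of 8 bases in a 3′-UTR of 1324 bases and fell by 0.53 on the log2 scale. Pnpla2, the adipose triglyceride lipase, held 1 match of 8 bases in 1075 bases and fell by 0.69. Rasa1 and Pnpla2 each also held 1 miR-30 match of 8 bases. Shc1 and Grb2, the other adaptor genes that fell beside Frs2, held none. Among those that rose, Hs6st2 held 1 miR-182-5p match, also of 8 bases, and rose by 0.37. Braf held 1 of 8 bases in a 3′-UTR of 7145 bases and rose by 0.14. Rps6ka3 held 2 of 7 bases and rose by 0.20. For the miR-30 seed the shares were 12%, 13.2% and 18.4% in the same order, beside 16.42% of all tested genes.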
